A study of Oniscidea with 6 samples.

Results

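Beta-tubulin is one of the 2 proteins of the tubulin dimer from which microtubules are built, and mammals encode it in a small family of closely similar genes, the isotypes. The 8 mouse symbols Tubb1, Tubb2a, Tubb2b, Tubb3, Tubb4a, Tubb4b, Tubb5 and Tubb6 were taken by name from 24421 genes in a table of woodlouse RNA. All 8 had reads in all 6 libraries. The table compared 3 samples labelled rolling with 3 labelled stretching, all of poly(A) RNA from fresh, untreated tissue of Oniscidea, the suborder of terrestrial isopod crustaceans to which woodlice belong. The labels used here leave out the species, sex, stage and tissue of the groups. They do not say whether a group's 3 samples are 3 animals either, so the p-values speak of the spread among these samples alone, part or all of which may be technical.

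Each isotype carries the same core fold, by which it binds GTP, pairs with alpha-tubulin and joins the microtubule wall, and most differences between isotypes lie in the acidic tail at the C-terminus, where motors, other microtubule-binding proteins and tubulin-modifying enzymes act. In mammals, Tubb5 and Tubb4b are expressed in many tissues and Tubb4b is also a tubulin of cilia. Tubb2a, Tubb2b, Tubb3 and Tubb4a are most abundant in the nervous system, Tubb3 being a common marker of neurons, and Tubb1 is the isotype of platelets and the megakaryocytes that shed them. These roles are known from mouse and human. Here a symbol is the mouse name under which woodlouse reads were counted, and neither an orthologue nor its place of expression follows from it. The mouse genes are alike enough in coding sequence that reads could be split between them, and the treatment of reads that match more than 1 gene is not stated, so the values of single members are uncertain.

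Values are normalised read counts, which are reads divided by 1 size factor per library. Counted reads ranged from 416821 to 1122154 per library in rolling and from 403971 to 544157 in stretching. The 20 genes with the highest mean held 40.1% to 79.5% of the reads of a library. The ribosomal RNA gene Rn45s alone held 34.7% of the reads of rolling 3, and Lars2 alone held 26.0% of those of stretching 3. The 8 beta-tubulins rested on 1697, 694 and 1144 reads in rolling libraries 1 to 3 and on 2757, 4322 and 4108 in stretching libraries 1 to 3. For single members these numbers went down to 1 read, for Tubb2b in rolling 1.

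The beta-tubulin family was lower in rolling as a sum, and its composition changed from one dominant member to several. Tubb4a, Tubb4b and Tubb2b fell in rolling, while Tubb1, Tubb2a, Tubb3 and Tubb5 rose. Tubb6 was too low to be tested. In stretching, Tubb4a held 85.5% ± 4.81 of the family's reads, and in rolling it held 33.9% ± 7.57 (SD, n = 3). Of the 7 members tested, all 7 passed the threshold by limma with Benjamini-Hochberg adjustment, 4 upward and 3 downward, where 75.2% of all 2948 tested genes passed it, 37.8% upward and 37.4% downward. A gene was tested when its mean normalised read count was at least 10, and it was called when its adjusted p was at most 0.05. Because 3 in 4 genes differed, a call on its own does not set the family apart.

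**Figure D1:**
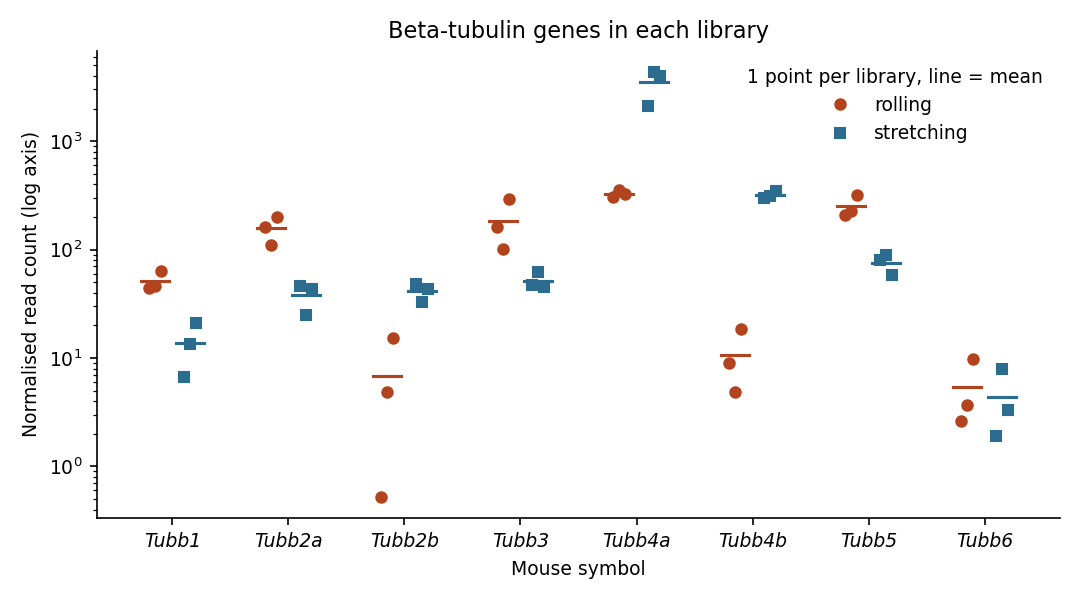
Normalised read counts (vertical log axis) of the 8 beta-tubulin symbols in 3 rolling (circles) and 3 stretching (squares) libraries, with a line at each group's mean. The groups are separate for 7 members, and for Tubb6 they overlap, with means of 5.36 in rolling and 4.39 in stretching.

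Tubb4a, an isotype of mammalian brain, had the most reads of the family in both groups. Its normalised read count was 304, 351 and 326 in rolling libraries 1 to 3 and 2114, 4351 and 3988 in stretching libraries 1 to 3. The lowest stretching library lay far above the highest rolling library. The means were 327 ± 23.6 and 3484 ± 1201 (SD, n = 3), so that the level in stretching was 10.6 times that in rolling. On the log2 scale, rolling minus stretching was -3.34 with an SE of 0.45 (limma adjusted p 0.00011). The gene stood at rank 14 by mean among all tested genes in stretching and at rank 109 in rolling. Its replicates were close together in rolling, with a coefficient of variation of 7.23% where counting error alone gives 5.42%, and wider in stretching, with 34.5% against 1.77%. Most of the latter spread lay in stretching 1, the lowest of its group.

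Tubb4b, the broadly expressed isotype that also builds ciliary microtubules in mammals, had the largest log2 fold change of the 7 tested members. It stood at 8.96, 4.90 and 18.5 in rolling libraries 1 to 3 and at 299, 311 and 348 in stretching libraries 1 to 3. No rolling library came near a stretching one. The means were 10.8 ± 6.97 and 319 ± 25.4 (SD, n = 3), on 38 and 901 reads, and the log2 fold change was -4.93 ± 0.46 (SE; limma adjusted p 1.1e-05). Its absolute value exceeded that of 80.6% of all tested genes, whereas that of Tubb4a exceeded 57.8%. With a pseudocount of 8 the log2 fold change of Tubb4b was -4.19. Of 12 markers of motile cilia, 9 had reads and 4 were tested, of which 2 rose and 1 fell, where 75.2% of all tested genes were called. Their summed normalised read count ranged from 129 to 203 in rolling and from 218 to 288 in stretching, with no read for Rsph1, a radial spoke protein. Without the axonemal dynein Dnah5, which had the highest mean of the list, the sums were 123 to 196 in rolling and 35.5 to 49.8 in stretching, the opposite order. That order rested on Cfap52 alone, which stood at 71.2, 157 and 99.985 in rolling libraries 1 to 3 and had no read in stretching. The part of ciliated cells in the value of Tubb4b was not tested.

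Tubb2b, an isotype of developing mammalian brain, was the third member to fall. It stood at 0.527, 4.90 and 15.2 in rolling libraries 1 to 3, which are 1, 4 and 14 reads, and at 47.9, 32.8 and 43.2 in stretching libraries 1 to 3. All stretching libraries were above all rolling ones. The log2 fold change was -2.99 ± 0.76 (SE; limma adjusted p 0.0055), and its size depended on single rolling libraries, being -2.10 without rolling 1 and -3.80 without rolling 3. It was -1.84 with a pseudocount of 8.

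Tubb2a, the closest relative of Tubb2b in the mouse, went the other way. Its normalised read count was 162, 111 and 199.97 in rolling libraries 1 to 3 and 46.0, 24.9 and 43.2 in stretching libraries 1 to 3. The groups did not overlap, and the means were 158 ± 44.4 and 38.0 ± 11.5 (SD, n = 3). The log2 fold change was 2.03 ± 0.39 (SE; limma adjusted p 0.0012). In stretching, Tubb2a and Tubb2b had nearly equal read numbers, with ratios of 0.960, 0.759 and 1 in samples 1 to 3, and each exact binomial 95% interval held 1. In rolling the ratio of Tubb2a to Tubb2b was 308 (54.9 to 12204), 22.8 (8.59 to 85.3) and 13.1 (7.64 to 24.5), the first of these resting on 1 read of Tubb2b. Such a ratio does not depend on the scaling between libraries, and its intervals cover counting error only. Tubb2a and Tubb2b together came to 165 ± 49.5 in the rolling group against 79.4 ± 19.1 in the stretching group (SD, n = 3), without overlap, so the rise of the former was larger than the loss of the latter. The pseudogene copy Tubb2a-ps2, outside the 8 members, was below the level for testing, at 0, 1.22 and 7.61 in rolling libraries 1 to 3 and 17.2, 5.66 and 17.7 in stretching libraries 1 to 3.

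Tubb5, the general isotype of most mammalian cells, had the second highest read number of the family in rolling. It stood at 211, 225 and 316 in rolling libraries 1 to 3 and at 79.5, 89.4 and 58.7 in stretching libraries 1 to 3. Every rolling library was above every stretching library. The means were 251 ± 57.2 and 75.9 ± 15.7 (SD, n = 3), and the log2 fold change was 1.71 ± 0.35 (SE; limma adjusted p 0.0017). The call was lost when libraries were scaled to their totals, where the change was 1.53 and limma gave 0.051 after adjustment.

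Tubb3, the neuronal isotype of mammals, changed by a like amount. Its normalised read count was 161, 102 and 293 in rolling libraries 1 to 3 and 47.0, 62.3 and 45.4 in stretching libraries 1 to 3. The groups did not overlap, although rolling 3 was well above rolling 2. The log2 fold change was 1.71 ± 0.43 (SE; limma adjusted p 0.0057). The call was lost when libraries were scaled to their totals, at p 0.053 after adjustment in limma, and without rolling 3 and stretching 3, at 0.057. The ratio of Tubb3 to Tubb5 was 0.763, 0.451 and 0.928 in rolling and 0.590, 0.696 and 0.774 in stretching, so the groups overlapped in it. Of 12 neuron markers, 11 had reads. Unc13a, which primes synaptic vesicles, was the 1 tested member and rose, where 75.2% of all tested genes were called, 37.8% upward. The summed normalised read count of the list was 532 to 1181 in rolling and 19.2 to 23.3 in stretching, with Unc13a at 490.2, 1139 and 650 in rolling libraries 1 to 3, and Gap43, a protein of growing axons, had no read. Without Unc13a the sums were 26.1 to 42.8 and 17.7 to 19.2. Within these sums, Snap25, Elavl3 and Nefm had higher means in stretching, and the other genes with reads had higher means in rolling. The part of neurons in the level of Tubb3 was not tested, and in bulk samples fewer cells of a type and less RNA per cell cannot be told apart.

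Tubb1, the platelet isotype, was counted on the fewest reads of the members that rose, 181 in rolling and 38 in stretching. It stood at 44.3, 46.5 and 64.1 in rolling libraries 1 to 3 and at 6.71, 13.6 and 21.0 in stretching libraries 1 to 3. The lowest rolling library was above the highest stretching one. The log2 fold change was 1.94 ± 0.45 (SE; limma adjusted p 0.0035). Woodlice have no platelets, and of 8 platelet and megakaryocyte markers 6 had reads, none reached the level for testing, and Ppbp and Gp1ba had no read. Summed, they stood at 4.90 to 10.9 in rolling and 3.83 to 7.93 in stretching.

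Tubb6, an isotype found at low level in many mammalian tissues, had a mean normalised read count of 4.88 and was not tested. It stood at 2.64, 3.67 and 9.78 in rolling libraries 1 to 3 and at 1.92, 7.93 and 3.32 in stretching libraries 1 to 3, on 17 and 12 reads in all. The groups overlapped, and at this depth no difference was detectable. The authors' deposited table gave it an adjusted p of 0.86 and called the other 7 members, where 37.2% of the 10612 genes with an adjusted p in that table were called at the same threshold. Most of those genes were below the level for testing used here, which the 7 members reached. Of the 2948 genes at that level, DESeq2 run on the recovered reads called 2050.

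**Figure D2:**
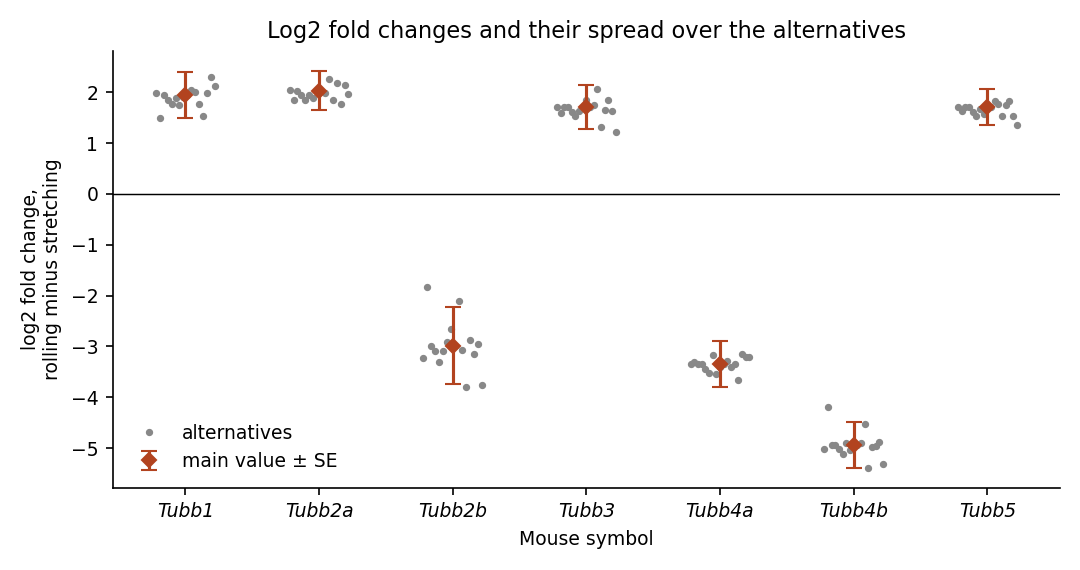
Log2 fold change of rolling over stretching (vertical axis) for the 7 tested beta-tubulins, as the main value with its SE (diamonds) and under each alternative of processing, test or sample choice (grey points). All points of Tubb1, Tubb2a, Tubb3 and Tubb5 lie above 0 and all points of Tubb2b, Tubb4a and Tubb4b below it, and those of Tubb2b spread from -3.80 to -1.84.

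The members that rose had mean levels 3.30 times (Tubb5), 3.59 times (Tubb3), 3.75 times (Tubb1) and 4.15 times (Tubb2a) as high in rolling as in stretching. Those that fell had levels 6.01 times (Tubb2b), 10.6 times (Tubb4a) and 29.6 times (Tubb4b) as high in stretching as in rolling. The size for Tubb2b rested on few rolling reads, and with a pseudocount of 8 its log2 fold change of -1.84 was smaller in size than the 1.85 of Tubb2a. The absolute log2 fold changes had a median of 2.03 over the 7 tested members and 2.82 over all 2948 tested genes, and the median signed value was 1.71 and 0.10. Rolling and stretching libraries were fully separate for 7 of 7 tested members, against 78.7% of all tested genes. Rolling was above for 4 members and for 39.8% of all tested genes, and stretching was above for 3 members and for 38.8%.

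**Figure D3:**
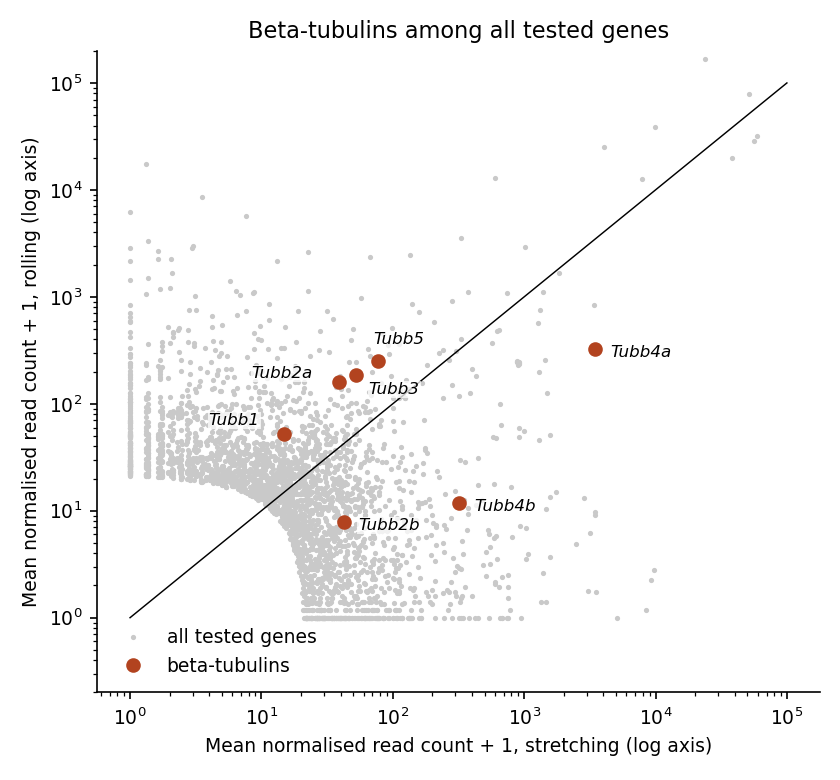
Mean normalised read count + 1 in rolling against stretching, both on log axes, for the 2948 tested genes (grey) and the 7 tested beta-tubulins (red), with the line of equal values. Tubb1, Tubb2a, Tubb3 and Tubb5 lie close to one another above the line, and Tubb2b, Tubb4a and Tubb4b lie below it with stretching means of 41.3, 3484 and 319.

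The sum of the 8 members was 894, 849.6 and 1243 in rolling libraries 1 to 3 and 2642, 4893 and 4551 in stretching libraries 1 to 3. Every stretching library was higher than every rolling library. The means were 996 ± 216 and 4029 ± 1213 (SD, n = 3), a difference of mean log2 sums of -1.99 (SE 0.33). No p is given for sums and shares, since the members were chosen with results known and the smallest p that an exact permutation test of 3 against 3 can give is 0.1. Expressed as a share of all counted reads, the family held 0.315%, 0.166% and 0.102% in rolling libraries 1 to 3 and 0.604%, 1.07% and 0.755% in stretching libraries 1 to 3, which did not overlap either. Exact binomial 95% intervals were 0.0961% to 0.108% for rolling 3, the lowest, and 1.04% to 1.10% for stretching 2, the highest.

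Tubb4a made up most of the difference in the sum. The mean sum differed by -3033 between rolling and stretching, of which Tubb4a made up -3157 and Tubb4b -309, while Tubb5, Tubb3, Tubb2a and Tubb1 were higher by 175, 134, 120 and 37.9. Without Tubb4a, the remaining 7 members summed to 590.3, 498 and 917 in rolling libraries 1 to 3 and to 528, 542 and 563 in stretching libraries 1 to 3. These values overlapped, with a log2 difference of 0.25 (SE 0.26). The 4 members that rose summed to 646 ± 203 in rolling and 179 ± 10.9 in stretching (SD, n = 3). The members were sorted by their direction here, so that separation of these sums is fixed by the choice.

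**Figure D4:**
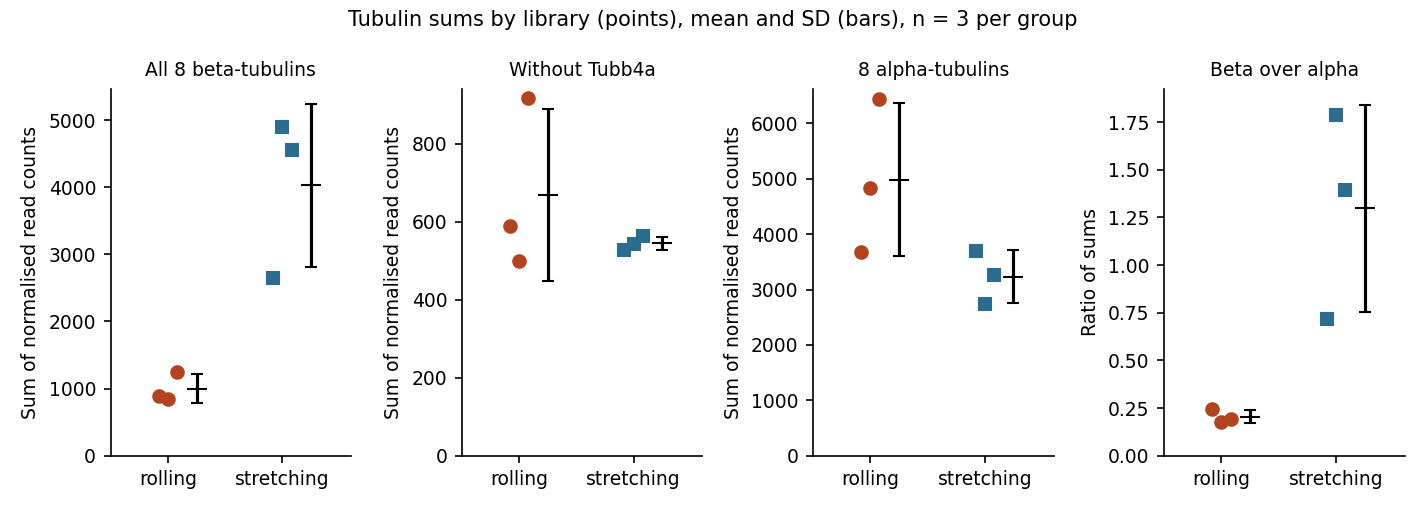
Sums of normalised read counts by library for all 8 beta-tubulins, for the 7 without Tubb4a and for 8 alpha-tubulins, and the ratio of the beta- to the alpha-tubulin sum (circles rolling, squares stretching, bars mean and SD, n = 3, axes starting at 0). The beta-tubulin sum is separate between groups, with means of 996 and 4029, and the sum without Tubb4a is not.

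Shares within the family do not depend on the scaling between libraries. Tubb4a held 34.0%, 41.4% and 26.2% of the beta-tubulin reads in rolling libraries 1 to 3 and 80.0%, 88.9% and 87.6% in stretching libraries 1 to 3. Tubb5 held 25.2% ± 1.49 in rolling and 2.04% ± 0.880 in stretching, and Tubb3 17.8% ± 5.82 and 1.35% ± 0.395 (SD, n = 3). The first 2 members by read number were thus Tubb4a and Tubb5 in rolling and Tubb4a and Tubb4b in stretching. Tubb2a moved from 1.07% ± 0.624 in stretching to 15.8% ± 2.53 in rolling, and Tubb1 from 0.331% ± 0.114 to 5.19% ± 0.265 (SD, n = 3). Tubb4b went from 8.44% ± 2.57 to 1.02% ± 0.455. The shares of these 6 members did not overlap between groups.

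The share and the level of a member can part. Tubb6, whose levels overlapped, held 0.505% ± 0.254 of the family in rolling and 0.103% ± 0.0515 in stretching, without overlap, because the sum to which it is referred was smaller in rolling. Tubb2b, whose levels did not overlap, held 0.620% ± 0.584 and 1.14% ± 0.596 (SD, n = 3), with overlap. The effective number of members, the inverse of the summed squared shares, was 4.18, 3.62 and 4.58 in rolling libraries 1 to 3 and 1.53, 1.26 and 1.29 in stretching libraries 1 to 3. A value of 1 means that a single member holds all reads.

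**Figure D5:**
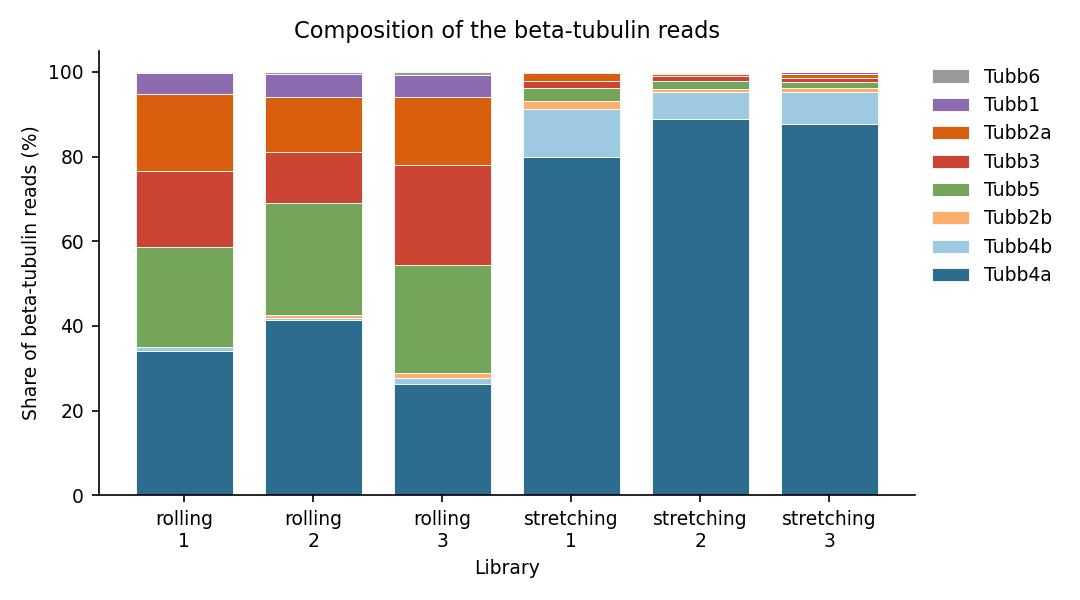
Share of the beta-tubulin reads (vertical axis, %) held by each of the 8 members in each library (stacked bars, 100% per library). Tubb4a fills 80.0% to 88.9% of the stretching bars and 26.2% to 41.4% of the rolling bars, where Tubb5, Tubb3, Tubb2a and Tubb1 make up most of the rest.

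The order of the members by read number was not resolved everywhere. In rolling it was Tubb4a, Tubb5, Tubb3, Tubb2a, Tubb1, Tubb4b, Tubb2b and Tubb6. Tubb4a was above Tubb5 in 3 of 3 libraries, but their ranges overlapped, as did those of Tubb5 and Tubb3, Tubb3 and Tubb2a, Tubb4b and Tubb2b, and Tubb2b and Tubb6. Tubb3 was above Tubb2a in 1 of 3 libraries. In stretching it was Tubb4a, Tubb4b, Tubb5, Tubb3, Tubb2b, Tubb2a, Tubb1 and Tubb6, with Tubb4a, Tubb4b and Tubb5 separate from one another. There the ranges overlapped between Tubb5 and Tubb3, Tubb3 and Tubb2b, Tubb2b and Tubb2a, and Tubb1 and Tubb6. Tubb4a stood at 1.44, 1.56 and 1.03 times Tubb5 in rolling libraries 1 to 3 and at 26.6, 48.6 and 67.9 times in stretching libraries 1 to 3. Lengths were not used, so these orders are of read numbers and not of levels per length.

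Replicate spread also differed among members. In rolling, the coefficient of variation of the normalised read counts was 21.0% for Tubb1, 22.8% for Tubb5, 28.1% for Tubb2a, 53.0% for Tubb3, 64.7% for Tubb4b and 110% for Tubb2b, where counting error alone gives 13.7%, 6.22%, 7.66%, 7.16%, 29.7% and 40.1%. Rolling 3 had the highest level of the 3 rolling libraries for each of the 8 members except Tubb4a. In stretching, Tubb4b varied by 7.96% against a counting error of 5.79%, Tubb2b by 18.7% against 16.0%, Tubb3 by 18.1% against 14.4%, Tubb5 by 20.7% against 11.8%, Tubb2a by 30.1% against 16.6% and Tubb1 by 52.0% against 28.1%. Counted per 100000 reads of the library, Tubb5 stood at 74.2, 44.1 and 25.9 in rolling libraries 1 to 3 and at 18.2, 19.6 and 9.74 in stretching libraries 1 to 3, with rolling 1 in place of rolling 3 as the highest. On this scale too, the groups of the 7 tested members did not overlap. The share of all tested genes without overlap was 78.7% with the deposited scaling and was not counted on this scale.

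Tubulin dimers hold 1 alpha and 1 beta chain, and the alpha-tubulin genes moved in both directions as well. Of 8 alpha-tubulins tested, 4 rose and 2 fell, a share of calls near the 75.2% of all tested genes, and the number called ranged from 4 with scaling to library totals to 8 without rolling 3. Tuba3b, the alpha-tubulin with the highest mean and the largest change, had 2358 ± 521 in rolling against 66.3 ± 13.9 in stretching, and Tuba1b had 207 ± 58.8 against 8.65 ± 5.54 (SD, n = 3). Their sum was 3679, 4838 and 6437 in rolling libraries 1 to 3 and 3692, 2738 and 3270.4 in stretching libraries 1 to 3, with overlap. The ratio of the beta- to the alpha-tubulin sum was therefore 0.243, 0.176 and 0.193 in rolling libraries 1 to 3 and 0.716, 1.79 and 1.39 in stretching libraries 1 to 3. All stretching ratios exceeded all rolling ratios, with means of 0.204 ± 0.0350 and 1.30 ± 0.542 (SD, n = 3). This separation rested on Tubb4a, which held 80.0% to 88.9% of the beta-tubulin reads in stretching. Without Tubb4a the beta-tubulin sum was 590.3, 498 and 917 in rolling libraries 1 to 3 and 528, 542 and 563 in stretching libraries 1 to 3, with overlap.

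Genes that fold, nucleate, modify and bind tubulin were mostly under the level for testing. The CCT chaperonin, prefoldin and the tubulin cofactors together fold tubulin and join alpha to beta, and of the 23 genes listed 19 had reads and 1 was tested. This was Pdcl3, a phosducin-like chaperone helper, which fell, with 38.3, 50.9 and 47.6 in stretching libraries 1 to 3 and no read in rolling. Of 12 genes of the other tubulins and the gamma-tubulin ring, from which microtubules grow, 2 were tested. Tubgcp3, a ring subunit, fell from 32.2 ± 6.91 to 3.07 ± 2.41, and epsilon-tubulin, Tube1, rose from 5.10 ± 3.51 to 15.9 ± 4.52 (SD, n = 3). The call of Tube1 was lost without rolling 1, stretching 1 or stretching 2 (limma adjusted p 0.071, 0.072 and 0.055), with scaling to library totals (0.085) and with DESeq2 (adjusted p 0.097).

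Among 27 tubulin-modifying genes in the table, 4 were tested, of which 1 rose and 2 fell. Ttll7, a ligase that adds glutamates to the tail of beta-tubulin, fell from 198 ± 17.5 to 8.07 ± 1.64, and Ttll9, of the same enzyme family, rose from 5.15 ± 5.35 to 78.8 ± 15.3 (SD, n = 3). Of 35 genes that bind, move or cut microtubules, 9 were tested, with 5 higher and 3 lower in rolling. Of all tested genes, 37.8% were called upward and 37.4% downward, so calls in both directions do not set these lists apart. The minus-end binding proteins Camsap2 and Camsap3 moved in opposite directions. Camsap2 stood at 0, 0 and 8.69 in rolling libraries 1 to 3 and at 109, 112 and 97.5 in stretching libraries 1 to 3, while Camsap3 stood at 18.4, 40.4 and 40.2 in rolling and had no read in stretching. Map1b, a microtubule-associated protein of axons, rose from 7.32 ± 4.24 to 192 ± 58.3 (SD, n = 3). For some of these genes the size rested on 1 library. Without stretching 2, the log2 fold change of Ttll9 was 4.69 in place of 4.02 and that of Tuba1b 3.98 in place of 4.64. Without rolling 3, that of Camsap2 was -6.74 in place of -5.65.

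Markers of other tissues moved in both directions too, as did the tested genes at large, of which 37.8% were called upward and 37.4% downward. Of 6 tested muscle markers 3 rose and 1 fell, with summed normalised read counts of 16203 to 70478 in rolling and 11965 to 15088 in stretching and no read for Tnnt1, Tnni2, Mylpf and Ckm. Without Acta1, the skeletal actin with the highest mean of the list, the sums were 4369 to 32235 and 8384 to 10793, which overlap. Of 5 tested gut markers 2 rose and 3 fell, and Prss1 and Try4 had no read. Their sums were 367 to 1185 in rolling, where they rested on the amylase Amy1, and 195 to 263 in stretching. Without Amy1 the sums were 102 to 124 and 195 to 263, the opposite order. Of 3 tested testis markers 1 rose and 2 fell, and Prm1, Prm2, Tnp1 and Tnp2 had no read. Their sums were 108 to 163 in rolling and 1184 to 2725 in stretching. The stretching sums rested on Gapdhs, a glycolytic enzyme of sperm, and without it the sums were 96.7 to 149 and 41.9 to 55.6, again the opposite order. The rolling sums rested on Ddx4, at 98.6, 95.5 and 147 in rolling libraries 1 to 3 and at 1.92, 1.13 and 0 in stretching libraries 1 to 3. Of 6 tested markers of dividing cells 3 fell and the other 3 were not called, and Ccnb2 had no read. Their sums were 79.6 to 98.9 in rolling and 195 to 955 in stretching, and 47.7 to 81.2 and 118 to 147 without the checkpoint kinase Bub1. The part of these tissues in the beta-tubulin values was not tested.

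Genes outside the tubulins with the profile most like each tested member were found by Pearson's r of log2(normalised read count + 1) over the 6 libraries, among 2748 tested genes with functional names. With Tubb4a, Trrap had an r of 0.9995, and with Tubb4b, Tap2 had 0.9986 and Taf15 0.9983. Tubb2b was followed most closely by Wscd1 (0.9973) and Rgl3 (0.9961). For the members that rose they were Crtam (0.9993) and Copg2 (0.9981) with Tubb2a, Dysf (0.9981) and Klhl2 (0.9967) with Tubb5, Pot1b (0.9973) with Tubb3, and Proc (0.9938) and Col4a1 (0.9890) with Tubb1. The 6 libraries fall into their 2 groups, so r mainly reflects the group difference. It exceeded 0.95 for 487 genes with Tubb4b, 460 with Tubb4a, 324 with Tubb5 and 198 with Tubb2a, but for 88 with Tubb1, 44 with Tubb3 and 26 with Tubb2b.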

How the data were processed

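The deposited signal values, 1 per gene and library, are reads divided by 1 size factor per library, per the file headers and the values. The submitters' processing notes name BWA, DESeq2 and mm10, a mouse genome build, with neither versions nor roles. The program that counted the reads is not stated, nor is the annotation. By their meaning, the column headings curl and strait were read as rolling and stretching. All columns with sample values were used. Per gene, the authors' deposited table also holds the log2 fold change, its standard error, their ratio as a test score, and p-values before and after adjustment.

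Each column is a multiple of its smallest nonzero value, which was taken as 1 read to recover whole reads. Within a tolerance of 1e-06, 100.0% of values came out whole. A count test on these reads with edgeR 4.0.16 called 2244 of the 2948 tested genes and DESeq2 1.42.0 called 2050. For the main test, log2(value + 1) of genes with a mean of at least 10 was fitted in limma 3.58.1 (R 4.3.3, trend option), two-sided and adjusted over all these genes by Benjamini-Hochberg. Fold changes on this scale understate the change of low genes. A value of 3 reads corresponds to 1.58 to 3.67 normalised reads per library. PCR copies are not independent molecules, so the intervals reflect counting error alone. Replicates differed by more than sampling noise in each pair of libraries. The fits were tested on simulated data in which few genes changed, equally often up and down. That setting differs from these data, where 75.2% of tested genes were called, so it does not show how the fits behave here.

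Named genes are the 8 members, per list the 2 called genes with the largest absolute change and the tested gene with the highest mean, and per tested member the 2 most correlated genes, some of which are not reported here. Of the marker lists, genes without a read and, chosen after values were seen, genes that carry a sum are named, with the sums recomputed without the gene of highest mean. Members and lists were chosen with earlier results of these data known. Lists covered alpha-tubulins, other tubulins and the gamma-tubulin ring, tubulin folding, tubulin modification, microtubule binding, and markers of neurons, muscle, motile cilia, platelets, testis, gut and dividing cells. Alternatives were other pseudocounts, filters, scalings and tests, a replicate block, and leaving out libraries.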

Additional observations from a re-analysis of the deposited data

How the results depend on the processing

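The direction of the 7 tested beta-tubulins was the same under each alternative run, and all 7 were called except in 3 settings. A minimum mean of 100 left 4 members to test, and these 4 were called, among 284 genes called in all. How many genes reached that mean was not counted, so no share of calls is given beside the 4. Scaling to library totals left 5 of 7 members called, where 1977 of the 2948 tested genes were called. There the log2 fold changes were 1.52 for Tubb3 (limma adjusted p 0.053) and 1.53 for Tubb5 (0.051). Without rolling 3 and stretching 3 together, 6 members and 2006 of the 2948 tested genes were called, and Tubb3 stood at 1.23 (0.057). Leaving out 1 library at a time moved Tubb1 between 1.53 and 2.29, Tubb2a between 1.76 and 2.26, Tubb2b between -3.80 and -2.10, Tubb3 between 1.31 and 2.07, Tubb4a between -3.67 and -3.15, Tubb4b between -5.38 and -4.52 and Tubb5 between 1.53 and 1.84. Over the 2948 tested genes the median change on the log2 scale was 0.10 with the deposited scaling and -0.06 with library totals. The log2 difference of the sum stood at -2.17 with scaling to library totals, and without Tubb4a it reversed to 0.25.

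No filter gave 5773 calls over the 18260 genes with a read, and a minimum mean of 100 gave 284. The number of genes tested differed between these settings, so these counts are not comparable as they stand. With no filter, 15 of the 34 genes with reads were called in microtubule binding, 7 of 25 in tubulin modification and 4 of 19 in tubulin folding. With a minimum mean of 100, only Ttll7 was called in tubulin modification. No gene of microtubule binding or tubulin folding reached that mean, so none could be called. The highest means there were 99.5 for Map1b and 22.8 for Pdcl3. In the gamma-tubulin ring list 0 were called with a minimum mean of 100, which none of its genes reached. The highest mean of that list was 17.6, for Tubgcp3, so the 0 follows from the filter. In the same list 1 was called with library totals and 1 with DESeq2, and 1 to 2 when 1 library was left out. Where 1 was called, the call lost was that of Tube1, and the cause of its loss was not tested.

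The labels do not say whether same-numbered libraries of the groups share more than a number. The correlations of their deviations were 0.021, -0.007 and 0.009 for numbers 1 to 3, and not every library correlated best with its own number. With 3 libraries per group, these values cannot show whether a batch was shared. With the replicate block 7 beta-tubulins and 2224 genes in all were called, and the mean log2 difference of the sum was -1.99 (SE 0.28). Shares per protein length were not run. Depth limits Tubb6, Tubb1 and Tubb2b most, with 29, 219 and 137 reads in all.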
